A study of Mus musculus with 9 samples.

Results

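The 31 genes described here carry glucose from the plasma membrane to pyruvate and lactate, and through the pentose phosphate branch. They were chosen by name as a list of glucose metabolism genes, and all 31 were found among the 55450 genes of the count table and among the 19357 genes that could be tested. The cells were EYFP+ cells sorted from the mammary glands of adult nulliparous mice, 7 days after the last of 5 daily injections of 2 mg Tamoxifen. Every mouse carried lsl-EYFP, a Cre-activated yellow reporter, and K8CreERT2, a Tamoxifen-inducible Cre driven by the Krt8 promoter of luminal epithelial cells. The control group carried only these alleles, the LATS1/2-KO group also carried floxed alleles of both Hippo pathway kinases (LATS1/2f/f), and the LATS1/2-Sox9-KO group carried floxed Sox9 (Sox9f/f) on top of those. Each group held 3 libraries, and the sources used here do not say whether each came from 1 mouse or from pooled mice, so p-values measure the spread between libraries. Total counts ran from 44167762 to 61967651 per library.

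Glycolysis splits each glucose into a pair of pyruvates, and mammalian cells can make most of its enzymes from several genes whose products differ in tissue distribution and in regulation. The hexokinase and phosphofructokinase steps commit glucose to the pathway, the steps from aldolase to pyruvate kinase recover ATP, and pyruvate then becomes lactate or enters mitochondria through pyruvate dehydrogenase, which pyruvate dehydrogenase kinases switch off. The pentose phosphate branch takes glucose 6-phosphate to make NADPH and ribose, and in the mammary gland glucose also feeds milk lactose and lipid.

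The targeted genes were examined first. Lats1 stood at 5672, 5929 and 5940 normalized counts in control, at 2090, 1923 and 2336 in LATS1/2-KO, and at 2058, 1844 and 1709 in LATS1/2-Sox9-KO (normalized counts are counts scaled to a common library size). Lats2 did not fall, with means of 1041 ± 177, 1471 ± 236 and 1592 ± 359 (SD, n = 3) in the same order. It passed the test as higher in LATS1/2-Sox9-KO than in control (log2 fold change 0.61), a call lost in 3 of 6 fits that left out a library. In LATS1/2-KO its log2 fold change of 0.50 did not pass. There it passed with upper-quartile factors (edgeR adjusted p = 0.0347), library totals (0.0246), only the 2 groups compared (0.0416) and a GC correction (0.00736). Sox9 had means of 21600 ± 1683, 9715 ± 2620 and 7343 ± 1281 (SD, n = 3), and its difference between the floxed groups had an edgeR adjusted p of 0.25. Counts over a whole gene need not fall when only part of it is deleted, and the floxed parts were not given in the sources used here, so the groups below are those of the labels. Luminal keratins were abundant in every library, with Krt8 at 168800 normalized counts or more. Control replicate 3 stood apart from the other control libraries for several members, most of all Slc2a3, and values without it are given where they matter.

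In LATS1/2-KO against control, 7 of the 31 members were higher and 13 lower at an adjusted p of 0.05 or less (edgeR quasi-likelihood test, Benjamini-Hochberg over 19357 genes), where 28.7% of all tested genes were higher and 27.1% lower. Past a 2-fold change as well, 3 were higher and 11 lower, against 17.1% and 17.5% of all genes. In LATS1/2-Sox9-KO against control, 9 members were higher and 11 lower, with 29.3% and 28.7% of all genes, and 3 and 9 changed more than 2-fold, with 17.8% and 19.6%. Both comparisons use the same 3 control libraries. The median log2 fold change of the members was -0.34 in the first comparison, where that of all genes was 0.04, and 0.10 in the second, where it was 0.01. Between the floxed groups, 4 members were higher in LATS1/2-Sox9-KO and 2 lower, where 3.13% of all genes were higher and 3.33% lower. These shares are 605 and 644 genes, which ranged from 155 to 1012 and from 94 to 1032 with 1 library left out. Members lower then ranged from 0 to 2. Library totals in place of TMM scaling (trimmed mean of M values, edgeR's default) moved the median of all genes by -0.106 here, left 3 and 2 members, and took the share of all calls that were higher from 48.4% to 30.4%. The libraries of the 2 groups did not overlap for 18 members in LATS1/2-KO against control, 21 in LATS1/2-Sox9-KO against control and 18 between the floxed groups, where this held for 61.6%, 68.8% and 27.9% of all genes. Of the 11 members from uptake through the phosphofructokinase step, none was higher and 8 were lower in LATS1/2-KO, and of the 9 members from aldolase to pyruvate kinase 5 were higher and 2 lower, a difference between steps that was not tested. Of those 5, Aldoa, Pgam1 and Pkm lost the call in 4 of the 6 fits that left out a library, which leaves Pgk1 and Eno1. The plot of fold changes in pathway order shows these calls in its left panel, and the upper rows of the panel for LATS1/2-Sox9-KO against LATS1/2-KO hold no lower call.

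**Figure D1:**
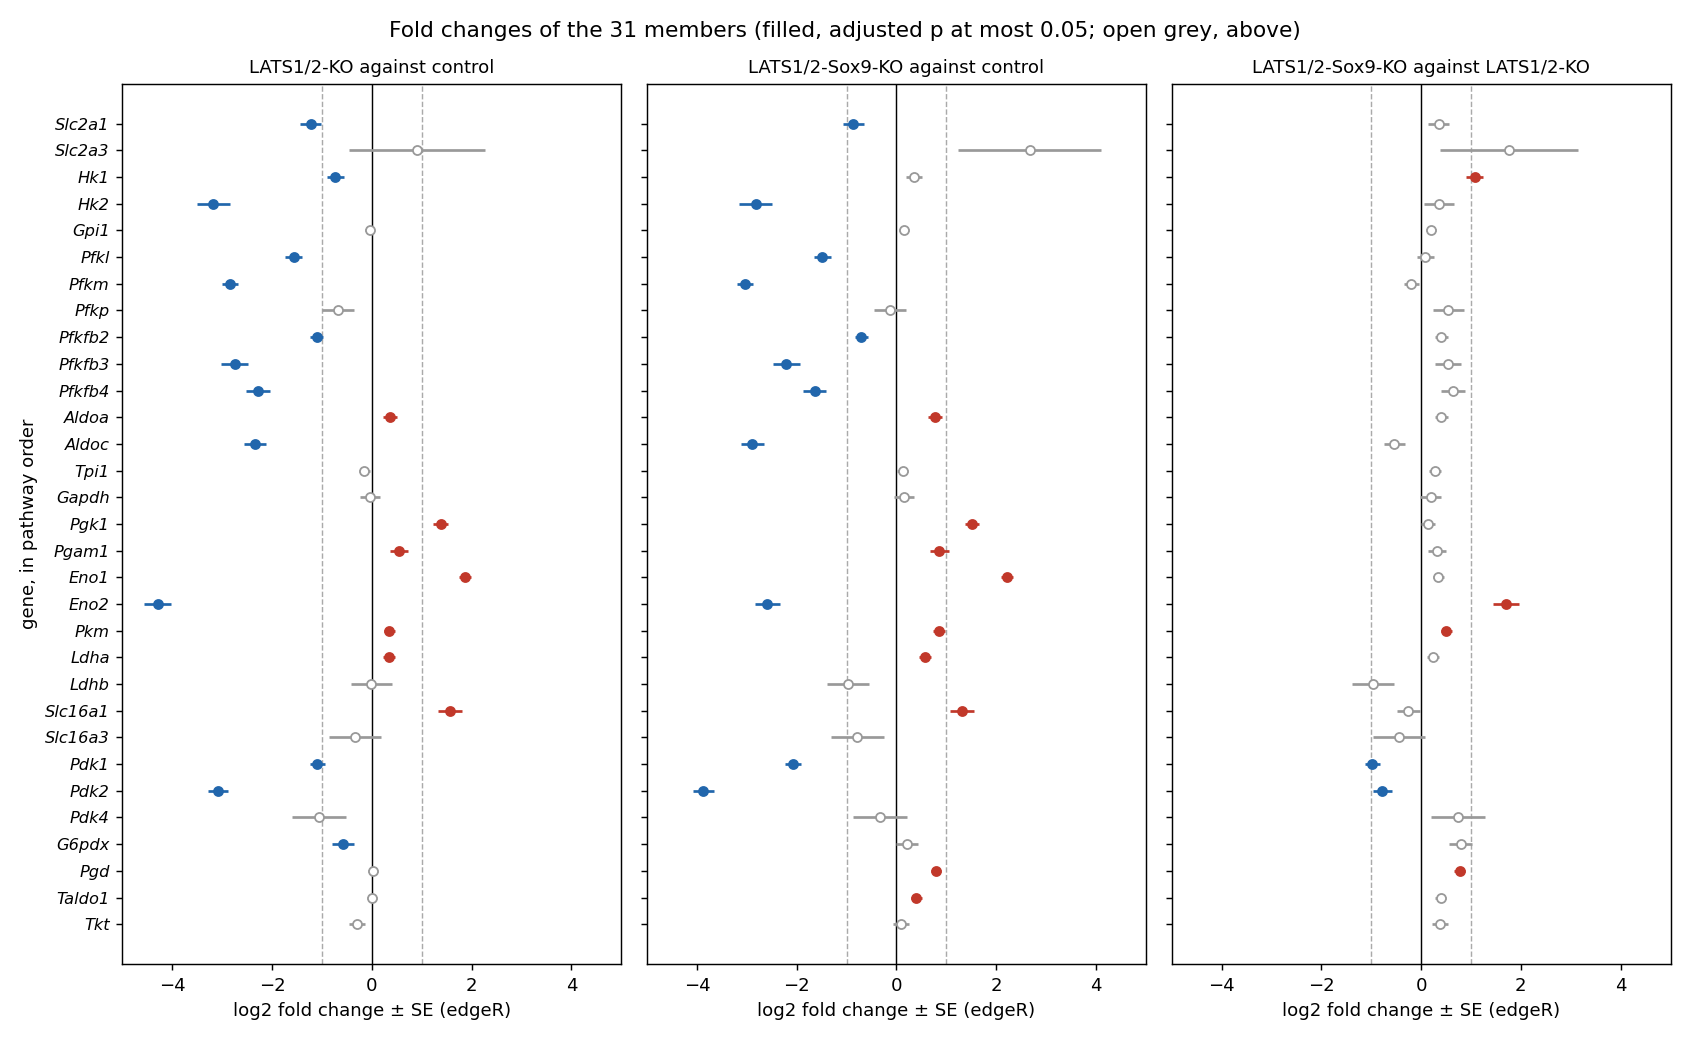
Log2 fold change (x axis) of each of the 31 members in pathway order from glucose uptake at the top to the pentose phosphate branch at the bottom, with bars of 1 SE from edgeR, in the 3 comparisons. Red points are higher and blue points lower at an adjusted p of 0.05 or less, open grey points did not pass, and dashed lines mark a 2-fold change; in the left panel the upper rows hold 8 blue points and no red one.

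Promoter sequence is shown for 4 members that changed more than 2-fold in both floxed groups, a pair that fell (Hk2 and Pdk2) and a pair that rose (Pgk1 and Slc16a1), because all 4 hold the same short motif. The motif is ACGTG on either strand (CACGT when read on the other), the core of the sites bound by hypoxia-inducible factors, and it also lies within the E-box CACGTG. RefSeq (GRCm38.p6) gave 47 promoter windows for 30 of the 31 members, and 17 windows, of 13 members, held the motif in the 250 bases before the start (36.2%, against 16.6% of 32851 windows of all genes). The capitals mark each match, and the sequences read 5′ to 3′ on the strand of the gene. They lie at chr6:82774455-82774704 on the minus strand for Hk2, chr11:95041372-95041621 on the minus strand for Pdk2, chrX:106186850-106187099 on the plus strand for Pgk1 and chr3:104638414-104638663 on the plus strand for Slc16a1.
Hk2: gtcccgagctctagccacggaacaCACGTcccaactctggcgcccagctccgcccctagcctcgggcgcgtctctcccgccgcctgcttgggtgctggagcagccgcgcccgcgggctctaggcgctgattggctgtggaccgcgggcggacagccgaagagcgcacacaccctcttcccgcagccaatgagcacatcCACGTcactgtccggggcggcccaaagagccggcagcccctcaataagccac
Pdk2: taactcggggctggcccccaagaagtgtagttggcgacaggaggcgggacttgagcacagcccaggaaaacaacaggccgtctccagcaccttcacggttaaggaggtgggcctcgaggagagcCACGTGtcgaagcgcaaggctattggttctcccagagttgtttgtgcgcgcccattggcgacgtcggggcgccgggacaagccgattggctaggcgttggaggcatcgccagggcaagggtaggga
Pgk1: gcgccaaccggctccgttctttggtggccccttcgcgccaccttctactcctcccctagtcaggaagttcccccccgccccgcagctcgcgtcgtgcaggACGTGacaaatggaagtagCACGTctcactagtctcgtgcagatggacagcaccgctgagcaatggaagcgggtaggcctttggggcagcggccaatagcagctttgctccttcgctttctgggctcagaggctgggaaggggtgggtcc
Slc16a1: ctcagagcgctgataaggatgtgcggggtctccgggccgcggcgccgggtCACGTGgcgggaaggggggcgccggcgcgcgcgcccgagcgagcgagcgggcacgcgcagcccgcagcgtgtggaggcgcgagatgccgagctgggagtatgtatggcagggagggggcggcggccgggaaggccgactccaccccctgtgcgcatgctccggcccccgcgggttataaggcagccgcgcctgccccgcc
These 4 were picked for holding the motif. Eno1, the other member more than 2-fold higher in both floxed groups, has none in its 3 windows, and of the 9 members more than 2-fold lower in both, Pfkl, Pfkfb4, Aldoc, Eno2 and Pdk1 have none either. A match of letters is not a measured site. The motif GGAATG on either strand, read by the TEAD partners of YAP and TAZ, was in 12.8% of the member windows and in 12.6% of all windows, and the 5 members with it were Aldoa, Aldoc, Eno1, Eno2 and Pdk2.

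Among the genes of glucose uptake and trapping, Hk2 and Slc2a1 fell in both floxed groups and Hk1 in LATS1/2-KO. Hk2 (chr6:82725025-82774454, minus strand, GRCm38 as all gene positions here) encodes the inducible hexokinase and stood at 11780, 9433 and 9042 normalized counts in control. It was at 1395, 640.5 and 1303 in LATS1/2-KO and at 2016, 1100 and 1158 in LATS1/2-Sox9-KO. Neither floxed group overlapped control, with falls of 9.07-fold (log2 fold change -3.18 ± 0.33 SE, edgeR adjusted p = 3.43e-05) and 7.08-fold (adjusted p = 5.14e-05). Hk1, the hexokinase most cells use, read 13290, 12690 and 12370 in control, 7076, 7213 and 8846 in LATS1/2-KO, and 20460, 15420 and 12860 in LATS1/2-Sox9-KO. Its LATS1/2-KO libraries were below all others. The fall against control was 1.66-fold (edgeR adjusted p = 0.00377), and LATS1/2-Sox9-KO exceeded LATS1/2-KO 2.11-fold (log2 fold change 1.08 ± 0.17 SE, adjusted p = 0.00849). Slc2a1, which encodes the widely used glucose transporter GLUT1, had means of 16970 ± 2693, 7259 ± 886.1 and 9293 ± 2869 (SD, n = 3), and no floxed library reached the lowest control library. Its falls were 2.34-fold and 1.83-fold (edgeR adjusted p = 0.000836 and 0.00549).

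Slc2a3 encodes GLUT3, a transporter of high glucose affinity, and it varied more than any other member. Control replicates 1, 2 and 3 had 42.91, 49.9 and 2526 normalized counts. The libraries labelled LATS1/2-KO held 3758, 418.5 and 736, and those labelled LATS1/2-Sox9-KO held 1381, 6672 and 8639. Apart from control replicate 3, each control library lay below each floxed one. With all libraries the log2 fold changes of 0.91 ± 1.37 and 2.68 ± 1.43 (SE) did not pass the test (edgeR adjusted p = 0.6 and 0.136). Without control replicate 3 they were 5.12 and 6.91 (adjusted p = 0.00744 and 0.00197). Leaving out LATS1/2-KO replicate 1 instead reversed the sign in LATS1/2-KO, to -0.59 (edgeR adjusted p = 0.756). Gpi1, the isomerase that makes fructose 6-phosphate, did not pass in any comparison, with means of 9099 ± 510.1, 8824 ± 625.4 and 10130 ± 462.4 (SD, n = 3), although a GC correction gave it log2 fold changes of 0.27 and 0.43 against control (edgeR adjusted p = 0.0342 and 0.00305). In LATS1/2-Sox9-KO the same correction also gave calls to Hk1 (0.59, adjusted p = 0.00587), Tpi1 (0.38, adjusted p = 0.0257) and Tkt (0.42, adjusted p = 0.0343). With replicate numbers added to it as a block, Gapdh passed there (0.48, edgeR adjusted p = 0.0462). Hk1, Gpi1 and Tpi1 kept their calls with the block (edgeR adjusted p = 0.0121, 0.00583 and 0.0447), but Tkt did not.

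Of the 6 members of the phosphofructokinase step, 5 were lower in both floxed groups and none was higher, where 27.1% and 28.7% of all genes were lower. Pfkm (chr15:98092589-98132451, plus strand), the muscle-type subunit, fell from 2458, 2561 and 2214 normalized counts in control to 280.8, 353.3 and 375.8 in LATS1/2-KO and to 259, 300.9 and 321.5 in LATS1/2-Sox9-KO. The groups did not overlap, and the folds were 7.16 and 8.20 (log2 fold changes -2.84 ± 0.16 and -3.04 ± 0.16 SE, edgeR adjusted p = 1.87e-06 and 7.92e-07). Pfkl, the liver-type subunit, had 8196, 7188 and 7689 in control against 3126, 1951 and 2715 in LATS1/2-KO and 3178, 2578 and 2491 in LATS1/2-Sox9-KO. These are 2.96-fold and 2.80-fold decreases (edgeR adjusted p = 5.01e-05 and 5.62e-05). Pfkp, the platelet-type subunit, did not pass, with means of 4693 ± 1794, 2942 ± 805.3 and 4301 ± 1185 (SD, n = 3). Its control libraries read 5809, 5646 and 2624, and without control replicate 3 its log2 fold change in LATS1/2-KO was -0.97 (adjusted p = 0.0114). Pfkm, Pfkp and 3 other members (Pfkfb2, G6pdx and Tpi1) overlap an opposite-strand gene with 8411 or more counts in all, where such partners of the other members had 707 or fewer. The authors' methods list the same strand among the counting settings, but how reads of such overlaps were assigned cannot be seen in the counts.

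The PFKFB enzymes make and remove fructose 2,6-bisphosphate, the strongest activator of phosphofructokinase, and the 3 among the members were lower in both floxed groups. Pfkfb3, the form with high kinase activity, was counted 18570, 15760 and 15410 times in control after normalization, 1472, 3009 and 2934 times in LATS1/2-KO, and 4486, 3385 and 2882 times in LATS1/2-Sox9-KO. That is 6.71-fold and 4.63-fold less (log2 fold changes -2.75 ± 0.27 and -2.21 ± 0.27 SE, edgeR adjusted p = 2.67e-05 and 7.09e-05). Pfkfb4 fell from a mean of 1254 ± 369.3 to 258.4 ± 35.94 and 402.4 ± 53.02 (SD, n = 3), and Pfkfb2 from 2454 ± 138.9 to 1140 ± 159.8 and 1510 ± 66.62. In both genes every floxed library lay under every control library. Their log2 fold changes were -2.28 and -1.64 for Pfkfb4 and -1.11 and -0.70 for Pfkfb2, with edgeR adjusted p-values up to 0.000939. The family's other gene, Pfkfb1, is not among the members, is named here after its values were seen, and went the other way at a low level, from a mean of 53.98 ± 15.07 to 166.2 ± 44.9 and 197 ± 74.81 normalized counts (SD, n = 3; log2 fold changes 1.62 and 1.86, edgeR adjusted p = 0.00475 and 0.00201).

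**Figure D2:**
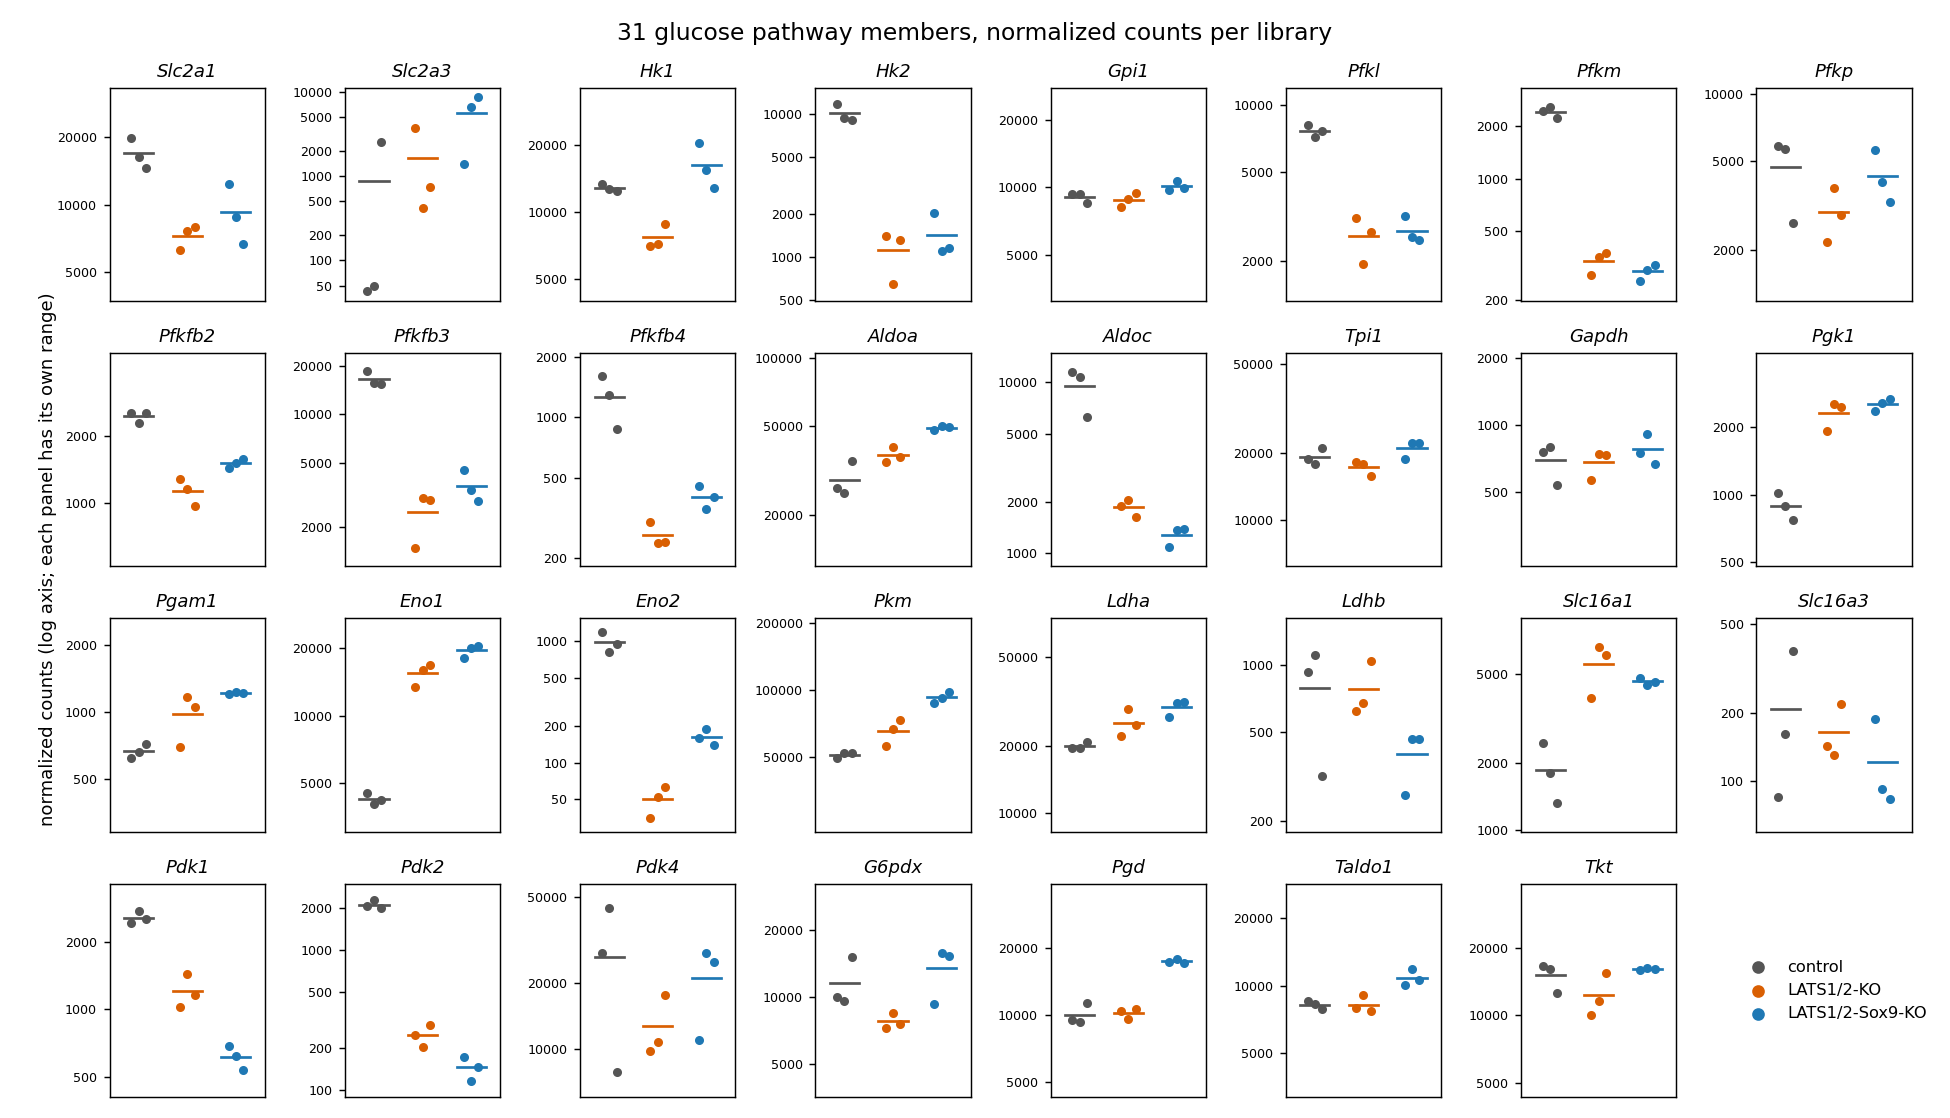
Normalized counts (y axis, log scale with its own range in each panel) of the 31 members in the 9 libraries, with points for replicates 1 to 3 from left to right and a bar at the group mean. Hk2, Pfkm, Eno2 and Pdk2 show 3 control points above all 6 others, Pgk1, Eno1 and Slc16a1 show them below, and Slc2a3 shows 2 of the 3 control points under 50 and the last at 2526.

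From aldolase to pyruvate kinase, Aldoa, Pgk1, Pgam1, Eno1 and Pkm were higher in both floxed groups, Aldoc and Eno2 were lower, and Tpi1 and Gapdh did not pass. Eno1 (chr4:150236721-150248879, plus strand), the ubiquitous enolase, stood at 4485, 4015 and 4210 normalized counts in control, 13410, 16090 and 16920 in LATS1/2-KO and 18140, 20160 and 20570 in LATS1/2-Sox9-KO. The 3 groups did not overlap. Its rises were 3.65-fold and 4.63-fold (log2 fold changes 1.87 ± 0.12 and 2.21 ± 0.12 SE, edgeR adjusted p = 2.62e-06 and 7.41e-07). Eno2 (chr6:124760053-124769673, minus strand), the neuronal enolase, went the other way, from 1185, 821 and 940.9 in control to 35.1, 51.68 and 62.93 in LATS1/2-KO and 159.7, 189.3 and 140.3 in LATS1/2-Sox9-KO. Again no groups overlapped. The 19.6-fold fall in LATS1/2-KO (log2 fold change -4.29 ± 0.28 SE, adjusted p = 3.02e-06) was the deepest of the 31 members in that comparison. LATS1/2-Sox9-KO exceeded LATS1/2-KO 3.26-fold (log2 fold change 1.70 ± 0.26 SE, adjusted p = 0.00805).

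Among the aldolases, Aldoc, the isoform known from brain, read 11430, 10790 and 6290 normalized counts in control, 1899, 2059 and 1631 in LATS1/2-KO, and 1092, 1364 and 1395 in LATS1/2-Sox9-KO. It fell 5.10-fold and 7.40-fold (edgeR adjusted p = 1.91e-05 and 4.99e-06) without overlap with control. Aldoa, the widely expressed isoform, had means of 28640 ± 5315, 36930 ± 3020 and 48920 ± 1183 (SD, n = 3). Its rise in LATS1/2-Sox9-KO was 1.71-fold (log2 fold change 0.77 ± 0.13 SE, adjusted p = 0.000728). In LATS1/2-KO the log2 fold change of 0.37 had an adjusted p of 0.0393, and 1 library of that group lay under the highest control library. That call was lost with DESeq2 (adjusted p = 0.0781), with RLE factors (0.0546) and with only the 2 groups in the fit (0.0586).

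Pgk1 (chrX:106187100-106203699, plus strand), the kinase of the first ATP-making step, was at 1011, 884.5 and 766.7 normalized counts in control, 1929, 2536 and 2460 in LATS1/2-KO, and 2367, 2555 and 2682 in LATS1/2-Sox9-KO. Both floxed groups lay above all control libraries (log2 fold changes 1.38 ± 0.15 and 1.51 ± 0.15 SE, edgeR adjusted p = 4.24e-05 and 1.9e-05). Pgam1, the mutase that follows, had means of 669.3 ± 48.12, 976.2 ± 246.9 and 1214 ± 11.81 (SD, n = 3), with log2 fold changes of 0.54 and 0.86 (adjusted p = 0.0295 and 0.00275). Pkm, the pyruvate kinase gene of most tissues, had the highest level per kilobase of all members in each group, as counted from uniquely aligned reads. Its libraries read 49710, 52000 and 52410 in control, 56430, 66590 and 73230 in LATS1/2-KO and 87870, 92120 and 97980 in LATS1/2-Sox9-KO, without overlap between any of the groups. The log2 fold changes were 0.35 and 0.85 against control (adjusted p = 0.0233 and 0.00013) and 0.50 between the floxed groups (adjusted p = 0.0308). The small rises of Aldoa, Pgam1, Pkm and Ldha in LATS1/2-KO no longer passed without control replicate 1, control replicate 2, LATS1/2-KO replicate 2 or LATS1/2-KO replicate 3, each left out alone, which left 3 members higher. The difference of Pkm between the floxed groups no longer passed without LATS1/2-KO replicate 2 or without LATS1/2-Sox9-KO replicate 2 or 3 (edgeR adjusted p up to 0.0984), nor with library totals as the scaling (adjusted p = 0.0634). Counts do not separate the M1 and M2 splice forms of Pkm. Tpi1, the triose phosphate isomerase, did not pass in any comparison without the GC correction, with means of 19280 ± 1684, 17330 ± 1330 and 21020 ± 1872.

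Gapdh, the dehydrogenase often used as a reference transcript, showed how copies of a gene bear on these values. It had only 697 ± 139.2, 682.2 ± 100.1 and 778.4 ± 125.2 normalized counts (SD, n = 3), and of the 50-base stretches of its main transcript 90.4% recur in other annotated genes, among them 213 pseudogenes. The authors kept uniquely aligned reads, so that a recurring stretch yields few of them. The same share was 72.2% for Eno1, 68% for Pgk1, 41.5% for Pgam1 and 34.4% for Pkm, and their levels are understated to an unknown degree. For Pfkfb2 it was 63.5%, shared mainly with an annotated gene at the same place, so its counts and the Pfkfb3 to Pfkfb2 ratio carry the same limit. With the counts of near-identical copies at other places added, Eno1 and Pgk1 kept log2 fold changes of 1.87 and 1.39 in LATS1/2-KO. For Eno2 only 0.255% of those stretches recur elsewhere, so the 1 pseudogene added to it is not a near-identical copy. That pseudogene held 28, 14 and 31 unscaled counts in control and 37, 40 and 49 in LATS1/2-KO. In LATS1/2-Sox9-KO it held 25, 26 and 54, and whether any of these were reads of Eno2 was not tested. With its copies added, Gapdh moved to 0.33 and 0.51 against control (edgeR adjusted p = 0.1 and 0.0196), from -0.03 and 0.16.

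Of the 4 members of lactate formation and export, Ldha and Slc16a1 were higher in both floxed groups, and Ldhb and Slc16a3 did not pass. Ldha, the lactate dehydrogenase subunit of glycolytic tissues, had 19630, 19520 and 20880 normalized counts in control, 22270, 29400 and 24750 in LATS1/2-KO, and 26860, 31180 and 31610 in LATS1/2-Sox9-KO. Both floxed groups lay above control, 1.27-fold and 1.49-fold (edgeR adjusted p = 0.0328 and 0.00235). Its call in LATS1/2-KO was lost in 5 of the 6 fits that left out a library and with DESeq2 (adjusted p = 0.0676). Slc16a1 (chr3:104638668-104658462, plus strand), which encodes the lactate transporter MCT1, read 2454, 1810 and 1325 in control, 3918, 6598 and 6080 in LATS1/2-KO and 4807, 4466 and 4607 in LATS1/2-Sox9-KO. It rose 2.97-fold and 2.48-fold (log2 fold changes 1.57 ± 0.24 and 1.31 ± 0.24 SE, adjusted p = 0.000354 and 0.000928). Ldhb, the subunit of oxidative tissues, had means of 787.5 ± 413.9, 782.6 ± 226.5 and 399.7 ± 117.8 (SD, n = 3), and it did not pass. Its control libraries held 936, 1107 and 319.9, and without replicate 3 its log2 fold change in LATS1/2-Sox9-KO was -1.35 (adjusted p = 0.00467). With all libraries it passed there with DESeq2 (adjusted p = 0.0271) and with no filter (0.0453). Slc16a3, the MCT4 exporter, was the lowest member per kilobase in control and in LATS1/2-Sox9-KO, with 82.89 to 379.6 normalized counts over all libraries.

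Of the 3 members that encode pyruvate dehydrogenase kinases, which hold pyruvate out of the mitochondrial oxidation route, Pdk1 and Pdk2 fell in both floxed groups. Pdk2 (chr11:95026258-95041354, minus strand) went from 2065, 2294 and 1993 normalized counts in control to 248.7, 202.5 and 292.8 in LATS1/2-KO and 171.7, 115.6 and 146.6 in LATS1/2-Sox9-KO. The control libraries lay far above all others, with folds of 8.54 and 14.62 (log2 fold changes -3.09 ± 0.20 and -3.87 ± 0.21 SE, edgeR adjusted p = 3.11e-06 and 7.88e-07). The latter was the deepest fall among the members in LATS1/2-Sox9-KO. Pdk1, the kinase induced by low oxygen, read 2428, 2770 and 2539 in control, 1027, 1441 and 1163 in LATS1/2-KO and 687.9, 619.8 and 535.6 in LATS1/2-Sox9-KO, so that the 3 groups formed separate steps. Its folds were 2.13 and 4.20 against control (adjusted p = 0.00023 and 4.66e-06) and 1.97 between the floxed groups (adjusted p = 0.00963, and 0.0523 without LATS1/2-Sox9-KO replicate 2). Pdk2 also differed between them (log2 fold change -0.78 ± 0.19 SE, adjusted p = 0.0434), a call lost in 5 of the 6 fits that left out a library (adjusted p = 0.171 without LATS1/2-Sox9-KO replicate 2) and kept without LATS1/2-KO replicate 2. Pdk4, the kinase induced by fasting and fatty acids, spread from 7800 to 44250 within control and did not pass. Without control replicate 3 its log2 fold change in LATS1/2-KO was -1.51 (adjusted p = 0.0107). Pdk3, the family's other gene, is not among the members and is also named after its values were seen. It rose from a mean of 896.1 ± 45.65 to 1552 ± 41.7 and 1533 ± 110.8 (SD, n = 3; log2 fold changes 0.79 and 0.77, edgeR adjusted p = 0.000238 and 0.000237).

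In the pentose phosphate branch Pgd was the member that passed the test between the floxed groups. Pgd (chr4:149149991-149166771, minus strand), which makes the second NADPH, stood at 9457, 9329 and 11330 normalized counts in control, 10400, 9559 and 10620 in LATS1/2-KO and 17350, 17820 and 17050 in LATS1/2-Sox9-KO. The last group lay above every other library, 1.73-fold over control and 1.71-fold over LATS1/2-KO (log2 fold changes 0.79 ± 0.10 and 0.77 ± 0.10 SE, edgeR adjusted p = 0.000119 and 0.00557). G6pdx, the enzyme that opens the branch, had 10020, 9623 and 15080 in control, 7266, 8512 and 7539 in LATS1/2-KO, and 9324, 15750 and 15270 in LATS1/2-Sox9-KO. Its LATS1/2-KO libraries were the lowest of the 9, with a log2 fold change of -0.57 (adjusted p = 0.0499) that passed in 1 of the 6 fits leaving out a library, the one without control replicate 2 (adjusted p = 0.0412), and was farthest from it without control replicate 3 (adjusted p = 0.185). The call was also lost with upper-quartile factors (0.0693), library totals (0.0809), glmTreat (0.0968) and the GC correction (0.11). The difference of 0.79 between the floxed groups had an adjusted p of 0.0657, and it passed with DESeq2 (adjusted p = 0.0132), with no filter (0.016) and without LATS1/2-Sox9-KO replicate 1 (0.0236). Taldo1, a transaldolase of the non-oxidative branch, was 1.32-fold higher in LATS1/2-Sox9-KO than in control (adjusted p = 0.00846), a call lost with glmTreat (adjusted p = 0.0707). Its difference from LATS1/2-KO had an edgeR adjusted p of 0.0565 and one of 0.0246 with DESeq2. That difference also passed with at least 10 counts in every library (edgeR adjusted p = 0.0483) and without LATS1/2-KO replicate 2 (0.0452). Tkt, the transketolase, did not pass with all libraries unless the GC correction was used, with means of 15140 ± 2238, 12380 ± 2756 and 16170 ± 187.7 (SD, n = 3). Without LATS1/2-KO replicate 3 its log2 fold change in LATS1/2-KO was -0.47 (edgeR adjusted p = 0.0233).

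Isoforms were also compared within each library, and no pair passed after adjustment. Levels were divided by the length of the main coding transcript, and the log2 ratio of 14 isoform or enzyme pairs was tested between the 6 floxed and the 3 control libraries with an exact two-sided permutation test, which cannot go below p = 0.0238. For 6 pairs (Hk2 to Hk1, Pfkm to Pfkl, Pfkfb3 to Pfkfb2, Aldoc to Aldoa, Eno2 to Eno1 and Pdk2 to Pdk1) the libraries did not overlap and p was 0.0238, which became 0.0556 after adjustment over the 14 pairs. At that smallest p, a pair could not pass the adjustment on its own, whatever the size of its shift. The lack of calls therefore does not bear on how far the ratios moved. In each of these 6 pairs the ratio was lower in every floxed library than in every control library, and the other 8 pairs overlapped. With all libraries the enolase ratio moved most, by -5.48 on the log2 scale from control to floxed libraries. Leaving out 1 library gave it -5.66 to -5.29. The ratio of Slc2a3 to Slc2a1, which moved by 4.65 with all libraries, then ran from 3.51 to 6.67. The log2 ratio of Eno2 to Eno1 was -2.38, -2.75 and -2.62 in control. It was -9.02, -8.73 and -8.52 in LATS1/2-KO and -7.29, -7.19 and -7.65 in LATS1/2-Sox9-KO. Eno2 thus made up 14.3% ± 1.62 of the summed level of Eno1 and Eno2 in control. Its share was 0.23% ± 0.04 in LATS1/2-KO and 0.601% ± 0.0965 in LATS1/2-Sox9-KO (SD, n = 3). These shares are too high to the degree that the level of Eno1 is understated. Eno3 is not among the members and was left out of the sum, with means of 354.7 ± 46.85, 260.9 ± 61.09 and 182.5 ± 2.02 normalized counts (SD, n = 3). Hk2 went from 35.4% ± 2.46 of the summed level of Hk1 and Hk2 to 9.09% ± 3.14 and 5.7% ± 0.867. Among the phosphofructokinase subunits, Pfkm went from 20.9% ± 1.55 to 7.66% ± 0.882 and 5.65% ± 1.61, while Pfkp had 27.4% ± 7.96, 46.4% ± 11.4 and 54.8% ± 4.27. Between the floxed groups, with 3 libraries each and a smallest possible p of 0.1, the ratios of Aldoc to Aldoa, Eno2 to Eno1, Ldhb to Ldha and Pdk4 to Pdk1 did not overlap (exact p = 0.1 each).

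**Figure D3:**
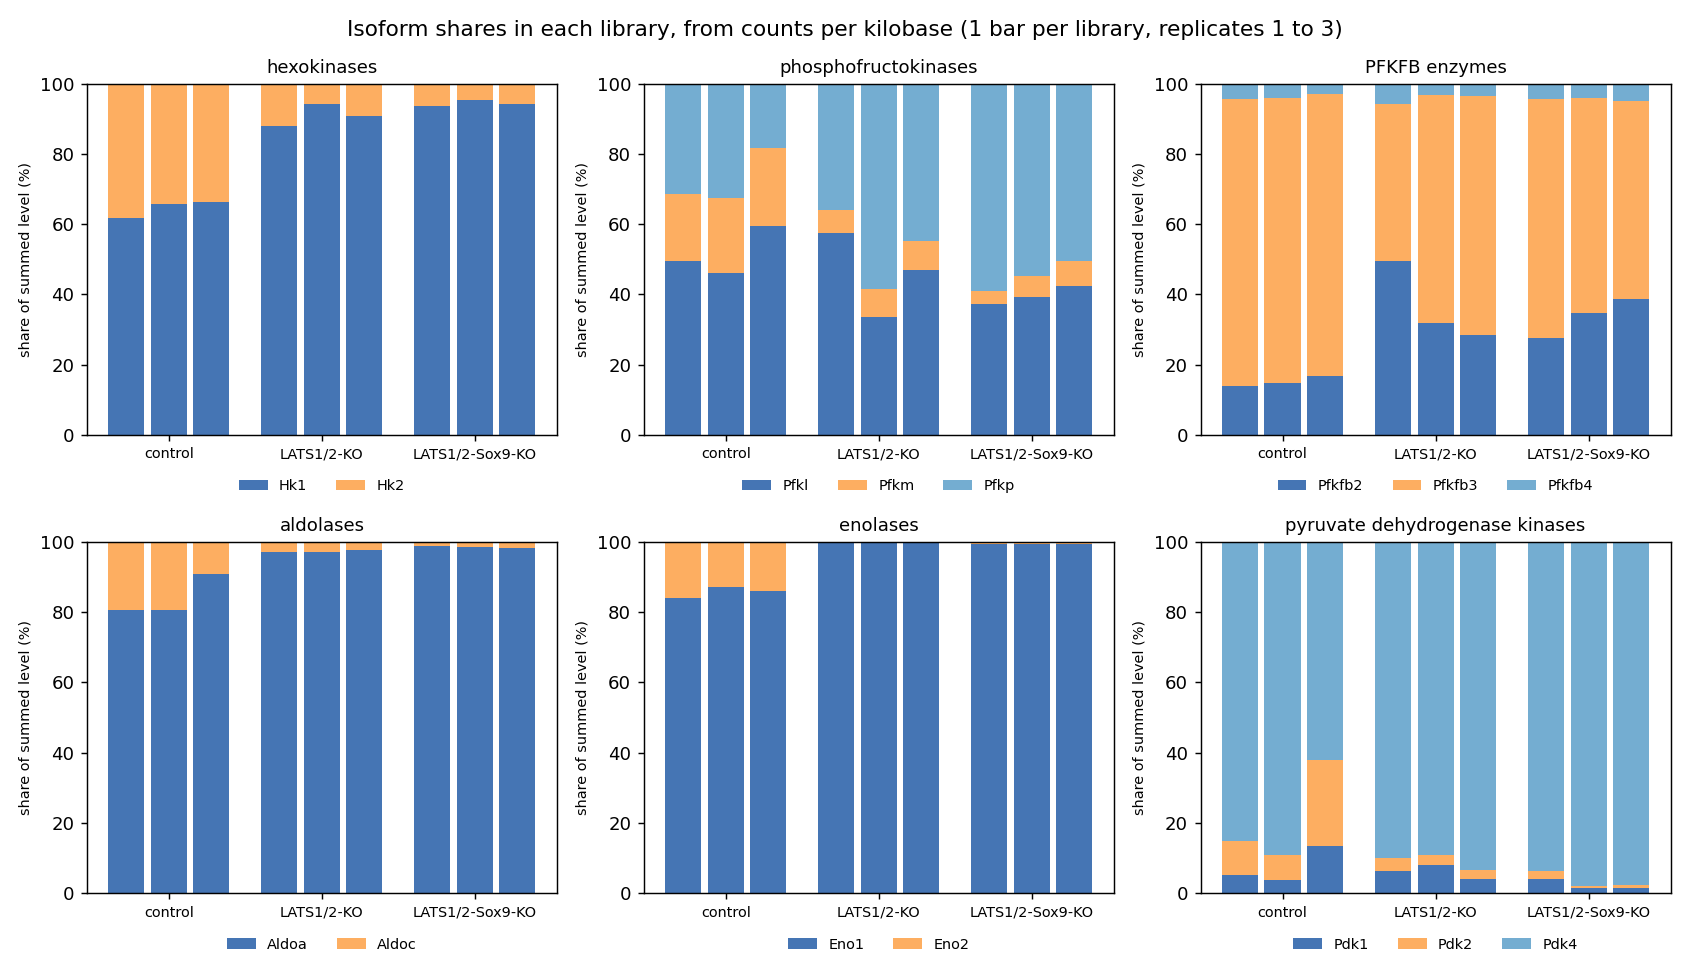
Share of each isoform (y axis, percent of the summed counts per kilobase) in 6 enzyme families, with 1 stacked bar for each of the 9 libraries in the order of replicates 1 to 3. Only members are summed, so Eno3 and Pdk3 are left out. Hk2, Pfkm, Aldoc and Eno2 take a smaller share in all 6 floxed libraries than in the 3 control libraries. Pdk4 makes up most of the sum of Pdk1, Pdk2 and Pdk4 throughout.

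On the per-kilobase scale the order of the members shifted as well. Pkm, Aldoa, Tpi1 and Ldha led in control, with levels of 392 ± 11.1, 343 ± 63.7, 223 ± 19.5 and 205 ± 7.71 CPM per kilobase of the main coding transcript (SD, n = 3, where CPM are counts scaled to the library size). Neighbors in that order overlapped within 1 SD for Pkm and Aldoa and for Tpi1 and Ldha. Eno1 went from place 15 with 38.8 ± 2.16 to place 5 with 142 ± 16.8 in LATS1/2-KO and 180 ± 11.9 in LATS1/2-Sox9-KO. Pfkfb3 went from place 6 with 139 ± 14.5 to places 16 and 14, and Hk2 from place 17 to places 26 and 25. The places of different genes also depend on how many of their reads align uniquely. Gapdh, with 90.4% of the 50-base stretches of its main transcript recurring elsewhere, was at place 23 with 10.2 ± 2.03 in control. Eno1, Pgk1, Pgam1 and Pkm are understated as well, so the order is not one of true abundance.

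Of 56 other genes of glucose handling, 48 could be tested. In LATS1/2-KO 14 were higher and 14 lower, in LATS1/2-Sox9-KO 16 higher and 15 lower, and between the floxed groups none higher and 2 lower. These counts are close to the shares of all genes, which were 28.7% and 27.1% in LATS1/2-KO, 29.3% and 28.7% in LATS1/2-Sox9-KO and 3.13% and 3.33% between the floxed groups. Pcx, pyruvate carboxylase, went from 7835, 9250 and 13260 normalized counts in control to 421.2, 445.7 and 500.7 and to 400.1, 261.1 and 267.8 (log2 fold changes -4.47 and -5.03, edgeR adjusted p = 1.52e-06 and 5.98e-07). Ldhd, the mitochondrial D-lactate dehydrogenase, changed by -3.86 and -3.75, Pck2, the mitochondrial PEP carboxykinase, by -2.25 and -2.34, and Gpd1, the cytosolic glycerol 3-phosphate dehydrogenase, by -2.48 and -3.31. Slc2a8, a hexose transporter, changed by -2.11 and -2.50 and Galm, the aldose mutarotase, by -1.90 and -2.30. Slc16a7, the MCT2 transporter, changed by -1.71 and -3.23. Below the level set for naming genes, and named after their values were seen, the transporter gene Slc2a10 had means of 78.08, 3.921 and 1.581 normalized counts and Fbp1, a fructose bisphosphatase, means of 90.42, 15.04 and 3.702, and both were lower in each floxed group (edgeR adjusted p up to 0.0473). The control libraries of Fbp1 read 26.68, 31.75 and 212.8, so that its mean rests on replicate 3. Slc5a1, the sodium-coupled glucose transporter, fell in both and was lower again in LATS1/2-Sox9-KO than in LATS1/2-KO (log2 fold change -2.03, edgeR adjusted p = 0.019). Fbp2, the muscle fructose bisphosphatase, was higher from near 0 (1.549 normalized counts on average in control, 128 in LATS1/2-KO and 39.96 in LATS1/2-Sox9-KO), and Slc2a9, a urate transporter, changed by 2.23 and 1.09. All of these passed the test in each comparison for which a change is given.

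Transcripts of regulators moved with the same libraries, and their part in the members' values was not tested. Of 38 listed regulators, 10 were higher and 19 lower in LATS1/2-KO, and 6 higher and 19 lower in LATS1/2-Sox9-KO, where 28.7% and 27.1%, and 29.3% and 28.7%, of all genes were higher and lower. Between the floxed groups 1 regulator was lower, Wwtr1, which encodes the YAP paralog TAZ (log2 fold change -0.65, edgeR adjusted p = 0.0251), and which was higher in LATS1/2-KO than in control (0.43, adjusted p = 0.0211). Hif1a, the oxygen-regulated factor that activates glycolytic genes, stood at 17170, 23590 and 39340 normalized counts in control, at 5927, 6186 and 6669 in LATS1/2-KO, and at 5817, 5953 and 6128 in LATS1/2-Sox9-KO. Each floxed library held less than any control library (log2 fold changes -2.09 and -2.16, edgeR adjusted p = 7.89e-05 and 5.38e-05), although the protein is mainly controlled by degradation. Epas1, which encodes HIF-2α, changed by -2.39 and -3.38, Egln3, a HIF prolyl hydroxylase, by -2.14 and -2.65, and Txnip, which restrains glucose uptake, by -1.35 and -1.85. Esrrg, a nuclear receptor of oxidative metabolism, changed by -5.58 and -6.02, Mycl by -3.38 and -3.86, Pparg by -2.21 and -3.47 and Ppard by -1.99 and -1.55. Mlxipl, the carbohydrate response factor ChREBP, had a log2 fold change of -2.44 in LATS1/2-Sox9-KO. Tead4, a DNA-binding partner of YAP and TAZ, rose by 2.29 and 2.67, and Yap1 changed by -0.65 and -0.78. Myc and Trp53 did not pass in any comparison, with means of 8846, 6910 and 8860 for Myc and of 3742, 3121 and 4384 for Trp53. Nfe2l2, which encodes NRF2, passed in LATS1/2-KO alone (log2 fold change -0.59, adjusted p = 0.0016), and its difference between the floxed groups had an adjusted p of 0.143.

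Of 20 hypoxia response genes outside glycolysis, 6 were higher and 6 lower in LATS1/2-KO, close to the 28.7% and 27.1% of all genes. In LATS1/2-Sox9-KO 6 were higher and 8 lower (29.3% and 28.7% of all genes), and between the floxed groups 3 were lower (3.33% of all genes). Vegfa, the angiogenic factor, changed by -2.63 and -2.01 on the log2 scale, Bnip3, a mitophagy receptor, by -1.18 and -2.52, and Stc2 by -3.68 and -5.77. Adm, the vasodilator peptide adrenomedullin, changed by 2.84 and 2.85, Car9, a carbonic anhydrase, by 1.71 and 1.89, P4ha2 by 1.04 and 1.03, and Ero1a by 1.01 and 0.82. P4ha1 changed by -0.90 and -1.45, Car12 had a log2 fold change of -1.64 in LATS1/2-Sox9-KO, and Bnip3 was lower there than in LATS1/2-KO as well (-1.33, edgeR adjusted p = 0.0396). Of 12 NRF2 targets, 4 were higher and 5 lower in LATS1/2-KO and 5 higher and 6 lower in LATS1/2-Sox9-KO. The shares of all genes are those given above for each comparison. Nqo1 changed by -2.38 and -2.48, Srxn1 by -2.27 and -1.32, Gclc by -2.08 and -1.94, Gclm by -1.47 and -0.999 and Osgin1 by -1.29 and -1.03. Slc7a11, the cystine transporter, changed by 1.89 and 2.96, and Abcc1 by 0.96 and 1.48. Hmox1, heme oxygenase, rose by 0.53 and 1.88 and was the only listed NRF2 target to differ between the floxed groups (log2 fold change 1.35, edgeR adjusted p = 0.00135).

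Proliferation genes and the summed levels of some cell type markers also moved with the groups. In bulk libraries of sorted cells, fewer cells of a type and less RNA per cell cannot be told apart. The counts of called genes in this paragraph stand beside the shares of all genes. These were 28.7% higher and 27.1% lower in LATS1/2-KO, and 29.3% and 28.7% in LATS1/2-Sox9-KO. All 16 proliferation genes were higher in both floxed groups, with a summed level of 202, 283 and 162 CPM in control and of 1140 to 1370 in the floxed libraries, and Top2a was the most abundant. The 8 basal epithelial genes summed to 83.9 to 104 in control and 2910 to 7190 in the floxed libraries, where Krt14 made up most of the sum, while of the 8 genes 4 were higher and 2 lower in LATS1/2-KO and 4 higher and 4 lower in LATS1/2-Sox9-KO. The 14 luminal genes summed to 19700 or more in every library, with Krt18 the most abundant, yet 8 of the 14 were lower in each floxed group and 2 and 3 higher. The 10 leukocyte genes summed to 14.7 to 21.5 in control and 39.7 to 90.6 otherwise. Csf1r carried 32.6 to 72 of the latter and 2.38 to 3.86 in control, 1 of the 8 leukocyte genes tested was higher in LATS1/2-KO and 3 in LATS1/2-Sox9-KO, and 3 of the 10 stayed under 1 CPM throughout. Fibroblast genes (8, Dcn the most abundant) were highest in control replicate 3 and LATS1/2-KO replicate 1 at 178 and 189, against 45.4 to 140 elsewhere, with 4 genes higher and 1 lower in LATS1/2-KO and 3 higher and 2 lower in LATS1/2-Sox9-KO. Endothelial genes (8) stood at 97.7 to 118 in control and 6.73 to 20.2 in the floxed libraries, but Vwf alone made up 85.6 to 103 of the control sums, and of the 8 genes 1 was higher and 2 lower in LATS1/2-KO and 1 higher and 3 lower in LATS1/2-Sox9-KO. The 10 adipocyte genes, Pnpla2 the most abundant, summed to 139 to 382 in all libraries, although 6 were higher and 1 lower in LATS1/2-KO and 4 higher and 1 lower in LATS1/2-Sox9-KO, and Cfd was listed at 0 in control but at 3093 and 1780 normalized counts in LATS1/2-KO replicates 2 and 3. Skeletal muscle genes (9, Eno3 the most abundant) reached at most 10.2 CPM with 6 of them under 1 throughout, and erythroid genes (6, Alas2 the most abundant) at most 2.7 with 4 under 1. The part of any of these cells in the members' values was not tested. Among 10 ubiquitous comparison genes, 3 were higher and 1 lower in LATS1/2-KO and 4 and 1 in LATS1/2-Sox9-KO.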

How the data were processed

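RNA was measured by sequencing TruSeq v2 libraries of sorted EYFP+ cells, 3 libraries in each of 3 groups. The authors deposited counts of uniquely aligned, properly paired reads per non-mitochondrial gene (mm10, Ensembl annotation; per the labels, STAR 2.6.0c, FastQC 0.11.7 and featureCounts of Subread 1.6.2). From these counts, genes were filtered with filterByExpr, scaled with TMM factors and fitted over all 9 libraries with edgeR 4.0.16 (quasi-likelihood F test, R 4.3.3), with Benjamini-Hochberg adjustment over 19357 genes. DESeq2 1.42.0 was an alternative, as were other scalings, filters, samples, a GC correction and left-out libraries. The scripts were tested on simulated data. Gene positions and lengths came from GENCODE M21. No library pair looked like a duplicate (chi-square per gene of 17.9 or more). The members and lists were chosen with earlier results of these data known. From each other list, the text names up to 8 genes per comparison by size of change among those past a 2-fold change and the test, without overlap between groups, and a few regulators always. Each library held 44167762 counts or more, and counting error was not compared with the spread between libraries.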

Additional observations from a re-analysis of the deposited data

How the results depend on the processing

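Across all settings, single genes and ratios kept direction and call in 1937 cases, lost the call in 54, gained it in 32 and changed sign in 51, and counts of genes stayed within 1.5 times in 421 cases and moved beyond in 46. The causes were not tested. In LATS1/2-KO against control, the log2 fold change of Pgd became -0.01107 with DESeq2 and -0.01045 with RLE factors, and that of Taldo1 -0.02736, -0.02691 and, with at least 10 counts in every library, -0.00744. Upper-quartile factors gave 0.007437 for Gapdh and 0.02416 for Ldhb, and library totals 0.01915 for Gpi1, 0.02899 for Gapdh, 0.04513 for Ldhb and, between the floxed groups, -0.03139 for Pfkl. Fitting only the 2 groups compared gave 0.009288 for Ldhb. The GC correction, chosen after seeing the data, gave 0.2678 for Gpi1 (edgeR adjusted p = 0.0342), 0.1456 for Tpi1, 0.3441 for Gapdh, 0.1833 for Ldhb, 0.1489 for Slc16a3 and 0.0735 for Tkt. With the replicate block added it gave 0.2658, 0.1482, 0.3501, 0.2057, 0.25 and 0.06495 for the same genes. Adding near-identical copies, also chosen after seeing the data, gave 0.332 for Gapdh.

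Between the floxed groups, DESeq2 called 1172 genes higher and 1228 lower (509 and 750 past 2-fold), and glmTreat against a fold change of 1.2 called 301 and 350 (273 lower past 2-fold). glmTreat left 3 members higher in LATS1/2-KO and 1 lower between the floxed groups. Fitting only the 2 groups also left 1 member lower there. Past 2-fold between the floxed groups, library totals gave 1 member higher and 1 lower, and upper-quartile factors 1 lower. Both GC corrections gave 5 members more than 2-fold higher in LATS1/2-Sox9-KO against control.

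Leaving out a library at a time, the members higher in LATS1/2-KO ranged from 3 to 7. Between the floxed groups, genes higher ranged from 155 to 1012 and lower from 94 to 1032, past 2-fold from 121 to 497 and from 78 to 582, members lower from 0 to 2 and members lower past 2-fold from 0 to 1. Without LATS1/2-Sox9-KO replicate 2 the counts were 155 and 94, and without LATS1/2-KO replicate 1 they were 1012 and 1032. In LATS1/2-KO against control, log2 fold changes ranged from -0.5887 to 5.116 for Slc2a3, -0.1037 to 0.01211 for Gpi1, -0.1998 to 0.0913 for Gapdh, -0.3978 to 0.3128 for Ldhb, -0.7132 to 0.4059 for Slc16a3, -0.03111 to 0.1042 for Pgd and -0.08026 to 0.06312 for Taldo1. In LATS1/2-Sox9-KO against control they ranged from -0.4054 to 0.05936 for Pfkp, -0.7548 to 0.2579 for Pdk4 and -0.01371 to 0.1733 for Tkt, and between the floxed groups from -0.03564 to 0.2856 for Lats2 and -0.05812 to 0.2379 for Pfkl. The log2 ratio of G6pdx to Gpi1 ranged from -0.37 to 0.03.

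Replicate numbers were used as a block as well. Of 9 same-numbered pairs, 2 had deviations that correlated above 0.1, and the best match of a library carried its own number in 10 of 18 cases. Those 2 pairs were replicates 1 and replicates 2 of the floxed groups (r = 0.105 and 0.17), the highest values of all pairs. Whether same-numbered libraries were handled together is not given in the labels and was not tested. With the replicate block, Ldhb became 0.01351 in LATS1/2-KO, and 1 member was lower between the floxed groups, since Pdk2 had an edgeR adjusted p of 0.0644.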
